A study of Mus musculus with 4 samples.

Results

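Polycomb complex subunits were followed across E14 embryonic stem (ES) cells, 2 induced pluripotent stem (iPS) lines made from bone marrow, and the bone marrow mononuclear cells (BMMNCs) that such lines are made from. The members are 10 genes, Ezh1, Ezh2, Eed, Suz12, Jarid2, Bmi1, Cbx2, Cbx7, Cbx8 and Phc1, taken with every probe whose RefSeq accession belongs to one of them. They have 16 probes, out of 41160 probes and 16354 genes with a symbol on the array. In both pluripotent cell types, Phc1, Eed, Jarid2, Cbx2 and Cbx7 were higher than in marrow and Cbx8, Bmi1 and Ezh1 were lower, while Suz12 passed on 1 of its 2 probes and Ezh2 did not pass the test. Of all tested probes, 76.4% passed against marrow for iPS cells and 74.3% for ES cells, in either direction. No member probe passed the test between iPS and ES cells, beside 4.88% of all tested probes, and some passed under other settings.

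The study profiled 4 samples, 1 array each, and set the reprogrammed lines beside the cell type of origin and a pluripotent reference. ES cells were of strain 129. iPS lines 7 and 13 were of strain C57BL/6 and came from cells of Oct4-EGFP transgenic mice, which carry a green fluorescent reporter of the pluripotency gene Oct4. BMMNCs were of strain C57BL/6, and their labels name no transgene. ES and iPS cells were grown with the cytokine LIF on irradiated embryonic fibroblast feeders, which were depleted by preplating on gelatin before RNA was taken. Each iPS line is 1 line, the ES line is a single one, and BMMNCs are a mixture of blood cell types. The labels do not give passage, age of the mice, or how many mice the marrow came from.

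Polycomb proteins keep developmental genes silent through chromatin. Polycomb repressive complex 2 (PRC2) methylates a lysine in the tail of histone H3, with Ezh1 or Ezh2 as the enzyme, Eed and Suz12 as its indispensable partners and Jarid2 as an accessory subunit that helps it reach its sites. Canonical Polycomb repressive complex 1 (PRC1) holds a RING enzyme that ubiquitinates histone H2A, a Pcgf protein such as Bmi1, a Cbx protein that reads the PRC2 mark through its chromodomain, and a Phc protein that can polymerise and compact chromatin. ES cells are known for a PRC1 built around Cbx7, and blood stem cells for their need of Bmi1.

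All levels below are log2 processed signals minus the 75th percentile of the array, so that 0 is the signal at that percentile and a difference of 1 is 2-fold. Levels of different probes cannot be ranked against each other, since each probe has its own brightness. The 75th percentile signal was 603 in BMMNCs and 1053 to 1127 on the other arrays, 54.6% to 59% of probes were well above background, and 0 spots were saturated. Markers fitted the labels: 8 of 8 pluripotency genes were higher and 12 of 12 haematopoietic genes lower in iPS cells than in BMMNCs. The pluripotency marker Zfp42 (Rex1) was nevertheless lower in the iPS lines, at 3.30 and 3.55, than in ES cells, at 7.12 (-3.69, SE 0.16, limma adjusted p = 0.0389). Fibroblast genes moved too, with 10 of 10 higher in iPS cells and a summed signal of 365 to 433 times the percentile in ES and iPS cells against 15.1 in BMMNCs. The summed signal of 12 haematopoietic genes ran from 0.6 to 0.729 in the pluripotent cells against 1390 in BMMNCs. Of 9 proliferation genes 3 were higher, 1 was lower and 5 did not pass, beside 41.5% higher and 36.3% lower over all genes. The summed signals of the 9 were 319 in ES cells, 215 and 236 in the lines and 225 in BMMNCs. The part of feeder RNA and of cell mixture in the differences below was not tested. In bulk RNA, fewer cells of a type and less RNA per cell cannot be told apart.

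The RefSeq promoter table of GRCm38.p6 held promoters, 250 bases before to 50 after a start, for 9 of the 10 genes, 10 in all because Jarid2 has 2. Cbx2 was not among them. Of these 4 are shown: the genes with the largest rise and the largest fall against BMMNCs, and the 2 PRC2 genes whose brightest probe did not pass in that comparison. All are written 5' to 3' on the gene's strand. In Phc1 (chr6:122340178-122340477, minus strand) capitals mark the CG dinucleotides. In Cbx8 (chr11:119040864-119041163, minus strand) they mark the cAMP response element TGACGTCA and the E-box CACGTG. In Ezh2 (chr6:47594981-47595280, minus strand) and Suz12 (chr11:79992856-79993155, plus strand) they mark the E2F forms TTTGGCGC and TTTCCCGC.
Phc1: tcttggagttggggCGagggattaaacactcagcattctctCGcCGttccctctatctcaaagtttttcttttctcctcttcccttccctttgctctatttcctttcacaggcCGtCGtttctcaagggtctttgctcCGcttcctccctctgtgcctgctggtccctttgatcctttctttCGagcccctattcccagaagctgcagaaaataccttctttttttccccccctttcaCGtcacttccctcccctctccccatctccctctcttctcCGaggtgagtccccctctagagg
Cbx8: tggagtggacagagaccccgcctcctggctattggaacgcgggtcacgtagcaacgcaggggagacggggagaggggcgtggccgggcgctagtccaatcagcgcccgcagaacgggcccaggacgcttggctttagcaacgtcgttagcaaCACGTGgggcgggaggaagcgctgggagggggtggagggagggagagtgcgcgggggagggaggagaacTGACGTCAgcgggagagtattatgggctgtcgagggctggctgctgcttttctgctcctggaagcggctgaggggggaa
Ezh2: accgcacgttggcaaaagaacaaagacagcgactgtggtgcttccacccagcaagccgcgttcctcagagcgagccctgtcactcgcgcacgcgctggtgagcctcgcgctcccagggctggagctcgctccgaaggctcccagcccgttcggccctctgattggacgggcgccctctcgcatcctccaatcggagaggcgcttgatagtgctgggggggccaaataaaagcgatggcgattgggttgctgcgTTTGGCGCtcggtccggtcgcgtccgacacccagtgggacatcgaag
Suz12: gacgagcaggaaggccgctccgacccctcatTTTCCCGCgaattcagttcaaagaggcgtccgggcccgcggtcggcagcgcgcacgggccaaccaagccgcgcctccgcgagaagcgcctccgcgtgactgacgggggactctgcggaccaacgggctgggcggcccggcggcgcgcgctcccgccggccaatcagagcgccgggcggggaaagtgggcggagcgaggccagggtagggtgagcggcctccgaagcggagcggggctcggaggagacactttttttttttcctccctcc

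The Phc1 window holds 9 CG dinucleotides and the Suz12 window 41, the fewest and the most of the 10 member promoters, against a median of 7 over all 32851 promoters. A lower count than that of Phc1 was found in 54.2% of all promoters, and a lower count than that of Suz12 in 96.5%. The other members held 17 (Eed) to 33 (Cbx7). Of 16 motifs searched on both strands, TTTGGCGC occurs in 0.514% of all promoters and, among members, in Ezh2, where its first base is base 254. TTTCCCGC occurs in 1.07% and, among members, in Suz12, at base 32, while the overlapping form TTCCCGCC (2.19%) was in none. TGACGTCA (1.79%) was in Cbx8, and CACGTG (7.15%) in Cbx8 and Bmi1. CCAAT (37.4%) was in 7 member promoters and the GC box GGGCGG (35.7%) in 6, GCGCGC (13.6%) was in Cbx7, Ezh1 and Suz12, and TATAAA (13.6%) in 1 Jarid2 promoter. The octamer ATGCAAAT (1.74%), the Esrrb site TCAAGGTCA (0.423%), the GATA site AGATAA (11.2%), the PU.1 site GAGGAAGT (3.2%), the ETS site CCGGAAGT (3.89%), the NRF1 site (0.971%) and the YY1 site (0.633%) were in no member window. Of the 16 motifs, none was found in the Phc1 window. A match is a string of letters, and no binding was measured here.

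The catalytic subunits of PRC2 differed in pattern. Ezh1, the enzyme associated with non-dividing and differentiated cells, is on chromosome 11 and has 1 probe. Its level was -2.27 in ES cells, -2.36 in line 7, -2.55 in line 13 and -1.44 in BMMNCs. BMMNCs were the highest array, and Ezh1 was 2.02-fold lower in the iPS lines (log2 difference -1.01, SE 0.13, limma adjusted p = 0.00997) and 1.78-fold lower in ES cells (-0.83, SE 0.16, adjusted p = 0.022). Ezh2, the enzyme of dividing cells, is on chromosome 6 and also has 1 probe. It read 3.12, 3.0, 3.11 and 3.10 in the same order. The BMMNC level lay among the pluripotent ones, with a difference of -0.037 (SE 0.11, adjusted p = 0.774) for the lines and 0.021 (SE 0.12, adjusted p = 0.89) for ES cells. Over all settings the iPS difference of Ezh2 ran from -0.23 to 0.10 and its sign was not settled.

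Of the non-catalytic core, Eed differed far more than Suz12. Eed, the WD40 protein that binds the histone mark and stimulates the enzyme, is on chromosome 7. It read 3.93 in ES cells, 3.68 in line 7, 3.86 in line 13 and 1.62 in BMMNCs. The BMMNC array stood apart, 4.43-fold below the lines (2.15, SE 0.13, adjusted p = 0.00203) and 4.93-fold below ES cells (2.30, SE 0.15, adjusted p = 0.00267). Suz12, on chromosome 11, is the zinc finger protein that holds the core together and has 2 probes. The brighter probe read 2.54, 2.72, 2.81 and 2.44, and the dimmer one -0.62, -0.66, -0.53 and -1.16. BMMNCs were lowest on both, but only the dimmer probe passed the test, 1.48-fold higher in the lines (0.57, SE 0.11, adjusted p = 0.0237) and 1.46-fold in ES cells (0.54, adjusted p = 0.0373). The brighter differed by 0.33 (SE 0.10, adjusted p = 0.0665) in the lines and 0.095 (adjusted p = 0.517) in ES cells. The call turned on the setting for both: the brighter probe passed in 5 of 9 other tests of the lines and the dimmer one in 6 of 8.

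Jarid2, an accessory PRC2 subunit on chromosome 13, was higher in all pluripotent cells on both of its probes. The brighter probe read 3.62 in ES cells, 3.75 and 3.81 in the lines and 1.91 in BMMNCs, and the dimmer one 1.14, 1.88, 1.89 and -0.67. On the brighter probe the lines stood 3.64-fold above BMMNCs (1.87, SE 0.10, adjusted p = 0.00162) and ES cells 3.27-fold (1.71, adjusted p = 0.00273). On the dimmer probe these folds were 5.88 (2.56, SE 0.091, adjusted p = 0.000997) and 3.49 (1.80, adjusted p = 0.00235). The pair of probes differed over the lines and ES cells, as described further below.

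**Figure D1:**
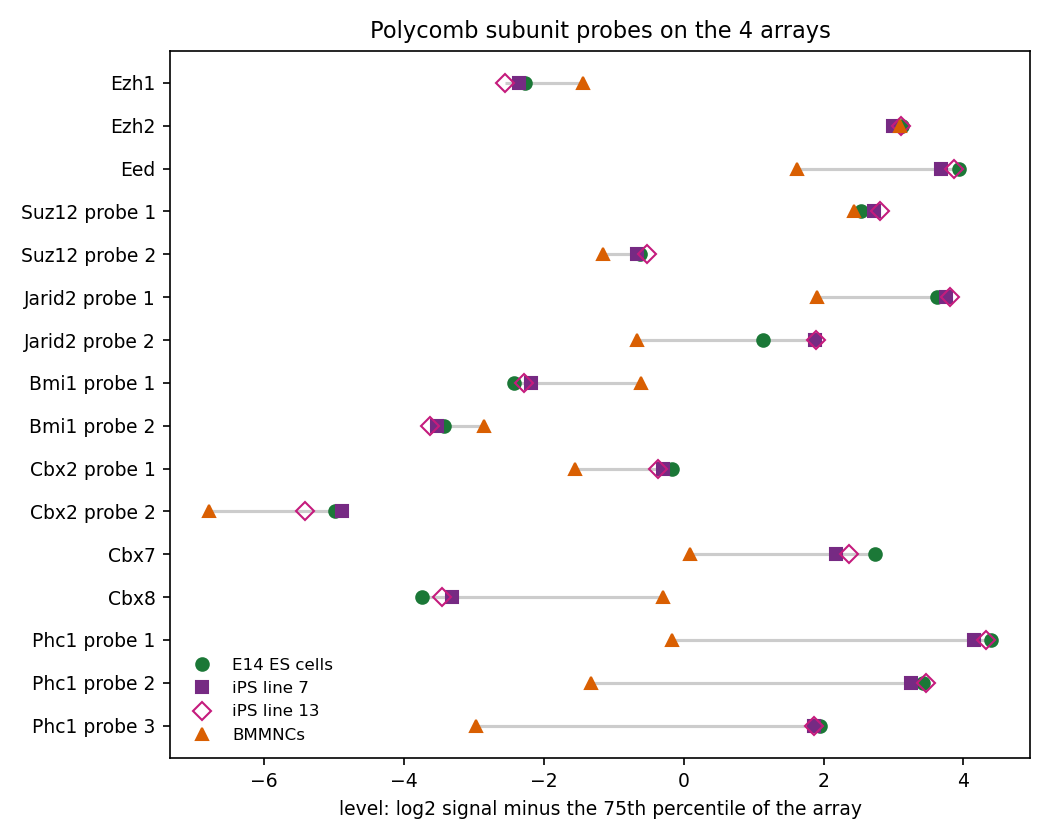
Levels of the 16 member probes on the 4 arrays (x axis, log2 signal minus the 75th percentile of the array; 1 row a probe, probes of a gene numbered from the brightest; grey bars join the lowest and highest array). Phc1 probe 1 lies between 4.15 and 4.39 in the pluripotent cells and at -0.17 in BMMNCs, Cbx8 has the opposite order, and the 4 symbols of Ezh2 overlap.

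In canonical PRC1, Bmi1 was higher in marrow. Bmi1, also called Pcgf4, is on chromosome 2 and stimulates the RING enzyme. Its brighter probe read -2.43 in ES cells, -2.18 and -2.28 in the lines and -0.61 in BMMNCs, and its dimmer probe -3.43, -3.53, -3.63 and -2.85. Both probes had BMMNCs as the highest array. The lines were 3.08-fold lower on the brighter probe (-1.62, SE 0.11, adjusted p = 0.00244) and 1.66-fold on the dimmer (-0.73, SE 0.10, adjusted p = 0.0116). ES cells were 3.55-fold (-1.83, adjusted p = 0.00291) and 1.5-fold lower (-0.59, adjusted p = 0.0276).

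The Cbx proteins split by paralog. Cbx7, on chromosome 15, read 2.73 in ES cells, 2.18 in line 7, 2.37 in line 13 and 0.088 in BMMNCs. It was 4.56-fold higher in the lines (2.19, SE 0.14, adjusted p = 0.00221) and 6.23-fold higher in ES cells (2.64, SE 0.16, adjusted p = 0.0024). Cbx8 went the other way, with -3.74 in ES cells, -3.31 and -3.45 in the lines and -0.29 in BMMNCs. It was 8.52-fold lower in the lines (-3.09, SE 0.12, adjusted p = 0.00105) and 10.9-fold lower in ES cells (-3.45, SE 0.13, adjusted p = 0.00139), the largest fall of any member. Cbx2 read -0.16, -0.30, -0.37 and -1.56 on its brighter probe. That probe was 2.33-fold higher in the lines (1.22, SE 0.10, adjusted p = 0.00348) and 2.63-fold in ES cells (1.39, adjusted p = 0.00398). Its dimmer probe was well above background on the line 7 array alone, at -4.88 there and -4.98, -5.42 and -6.78 in ES cells, line 13 and BMMNCs. It passed the test against BMMNCs (1.63, SE 0.29, adjusted p = 0.0186, and 1.81, SE 0.33, adjusted p = 0.0212, for ES cells), but no fold is given because the iPS mean is under the dimmest BMMNC signal that counts as above background. With normexp background correction its sign turned, to -0.32 and -0.26.

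Cbx2 and Cbx8 are neighbours on chromosome 11, with no protein-coding gene between them in the RefSeq order. These adjacent paralogs thus differed from BMMNCs in opposite directions, Cbx2 being higher and Cbx8 lower in pluripotent cells.

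Phc1, the polyhomeotic subunit on chromosome 6, differed most. Its brightest probe read 4.39 in ES cells, 4.15 in line 7, 4.33 in line 13 and -0.17 in BMMNCs. The second read 3.42, 3.25, 3.47 and -1.32, and the third 1.95, 1.86, 1.87 and -2.97. All 3 probes put BMMNCs far below the other arrays, by 21.3-fold (4.41, SE 0.13, adjusted p = 0.000809), 25.6-fold (4.68, SE 0.15, adjusted p = 0.000869) and 28.4-fold (4.83, SE 0.092, adjusted p = 0.000628) for the lines. ES cells stood 23.6-fold (4.56), 26.7-fold (4.74) and 30.1-fold (4.91) above BMMNCs, with adjusted p of 0.00118, 0.00129 and 0.00097. Only 5.31%, 4.63% and 4.31% of tested probes had a higher iPS difference than these probes of Phc1.

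**Figure D2:**
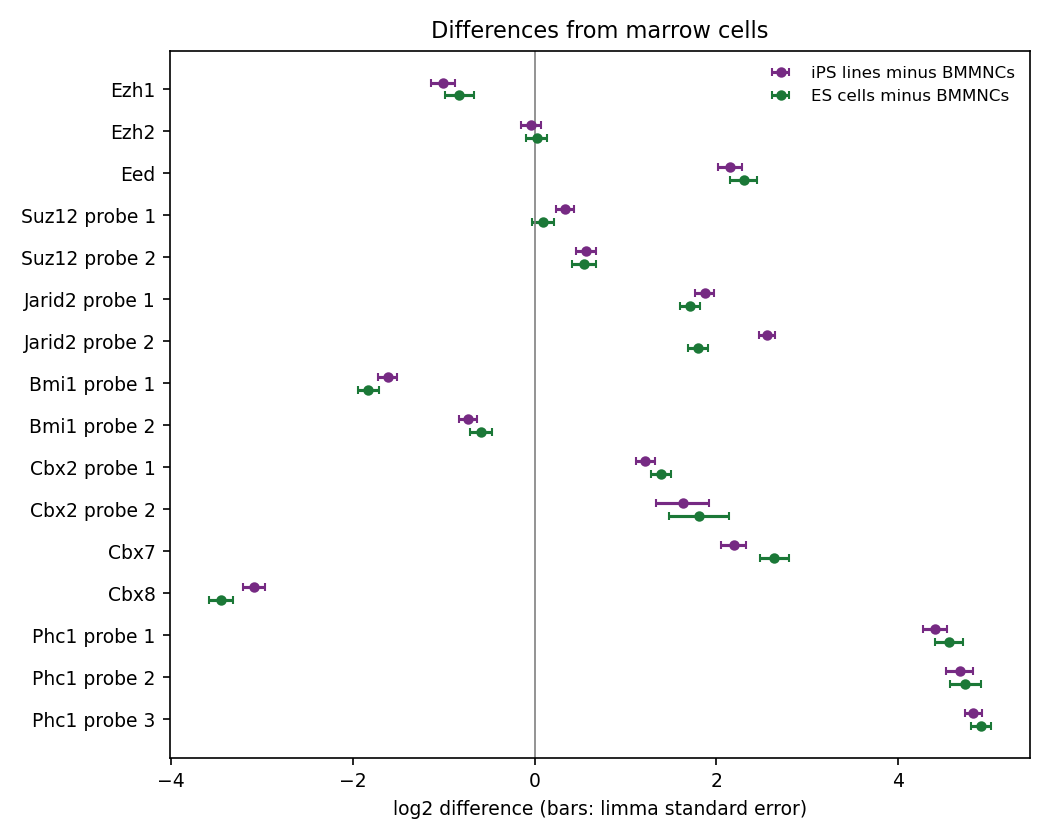
Log2 differences of the 16 member probes from BMMNCs (x axis) for the iPS lines and for ES cells, with limma standard errors as bars; both series share the BMMNC array. Phc1 lies at 4.41 to 4.91, Cbx8 at -3.09 and -3.45, and Ezh2 at -0.037 and 0.021.

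Counted over probes, 10 of 16 member probes were higher in the iPS lines than in BMMNCs and 4 were lower, which is to be read against 40% and 36.5% of the 27257 probes tested, 76.4% in either direction. The 10 include the dimmer Cbx2 probe, which was well above background on the line 7 array alone and was tested only through it. ES cells against BMMNCs gave 10 and 4 as well, against 40.7% and 33.6% of tested probes, 74.3% in either direction. Those 10 also include this Cbx2 probe, which was not well above background in ES cells or in BMMNCs. The comparisons with BMMNCs share the single BMMNC array, so that they are not independent. By gene, 5 were higher on every probe (Eed, Jarid2, Cbx2, Cbx7, Phc1), 3 lower (Ezh1, Bmi1, Cbx8), Suz12 was higher on 1 of its 2 probes and Ezh2 on none. By brightest probe, 41.5% of all genes were higher in the lines and 36.3% lower, and 41.9% and 33.6% in ES cells. For Cbx2 only the brighter probe was above background on all arrays. The median difference of the member probes was 1.43 for the lines and 1.55 for ES cells, beside 0.061 and 0.13 over all tested probes, and 1.22 and 1.39 over the 15 member probes above background on all arrays, a subset taken after the data were seen. These medians weight a gene by its probes: Phc1 has 3, and Jarid2, Cbx2, Suz12 and Bmi1 have 2 each. The median absolute difference was 1.75 and 1.81, beside 1.14 and 1.19. By size, 6 probes of Cbx7, Eed, Jarid2 and Phc1 exceeded BMMNCs 4-fold or more in each line (15% of tested probes) and 1, Cbx8, at least 4-fold lower (14%).

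**Figure D3:**
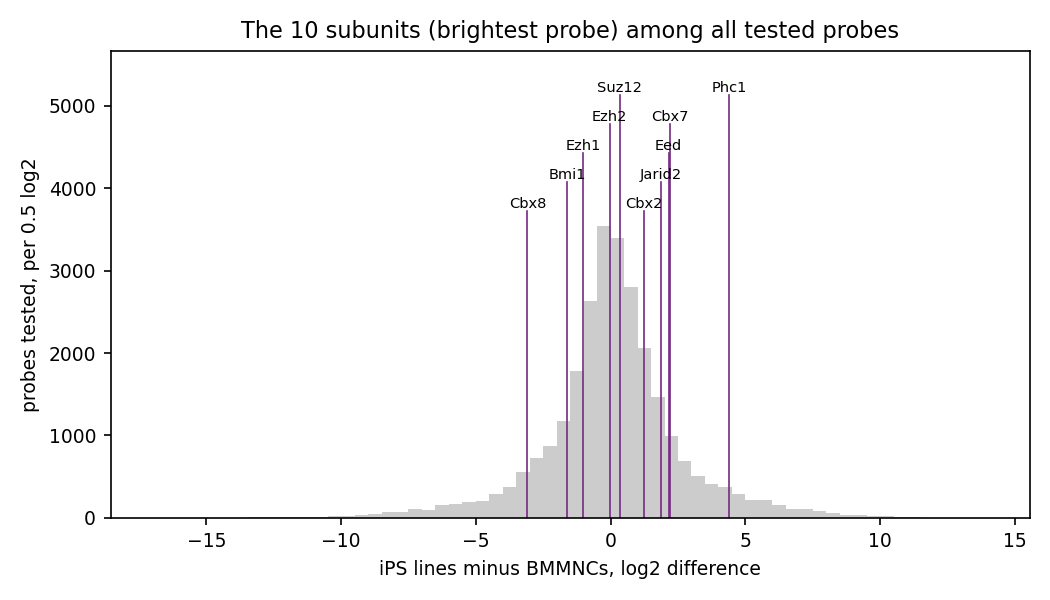
Distribution of the iPS minus BMMNC log2 difference (x axis) over all 27257 probes tested (y axis, probes per 0.5 log2), with a line at the brightest probe of each of the 10 subunits. Phc1 at 4.41 lies in the upper tail and Cbx8 at -3.09 in the lower, and Ezh2 at -0.037 lies in the tallest bar.

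With 1 array each for ES cells and BMMNCs, their spread was borrowed from the pair of iPS lines, and no array measures it. The p-values reflect the spread between samples whose separate culture is not stated, and so few arrays limit the precision.

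Within the pluripotent cells the members lay close together. None was 2-fold higher or 2-fold lower in both lines than in ES cells, beside 2.23% and 3.91% of tested probes. Between the iPS lines and ES cells 0 of 16 member probes passed an adjusted p of 0.05 by limma, beside 4.88% of all tested probes, 2% higher and 2.88% lower. At an unadjusted p under 0.05 there were 2, the dimmer Jarid2 probe and Cbx7, beside 8621 of all 27257. The differences ran from -0.45 to 0.75, with a median absolute value of 0.16 beside 0.25 over all tested probes. The dimmer Jarid2 probe was 1.14 in ES cells and 1.88 and 1.89 in the lines, a difference of 0.75 (1.68-fold, SE 0.091, adjusted p = 0.0594). The brighter Jarid2 probe differed by 0.16 (SE 0.10, adjusted p = 0.357), so the probes of this gene did not give the same size. Cbx7 was 2.73 in ES cells and 2.18 and 2.37 in the lines, a difference of -0.45 (1.37-fold, SE 0.14, adjusted p = 0.155). For Cbx8 it was 0.36 (SE 0.12, adjusted p = 0.168), and for the 3 Phc1 probes -0.15 (SE 0.13), -0.062 (SE 0.15) and -0.083 (SE 0.092). A p that misses the threshold does not show equal levels. The calls turned on the setting. With normexp correction, with probes above background on all arrays and with an intensity trend in the prior, the dimmer Jarid2 probe passed at adjusted p of 0.002, 0.000116 and 1.68e-06, and Cbx7 at 0.048, 0.00753 and 0.000912. Cbx8 passed in the second of these (0.0183) and the brighter Suz12 probe in the third (0.0425). Strain, cell origin and the reporter differ together between these groups and cannot be told apart.

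Lines 7 and 13 differed for these genes about as much as over all tested probes. None of the 16 member probes was 2-fold apart, beside 2.15% of all tested probes, and this comparison of 2 arrays has no replicate check. Leaving out the Cbx2 probe near background, line 7 minus line 13 ran from -0.23 (Phc1, second probe) to 0.19 (Ezh1). The median absolute difference was 0.12 for the members and 0.10 for all tested probes. The error of a spot estimated by the scanner software was 0.14 to 0.19 (log2) for the 15 probes above background on all arrays and 0.3 to 1.4 for the Cbx2 probe that was not. The second Phc1 probe, Cbx7 (-0.20), Ezh1, the brightest Phc1 probe (-0.18) and Eed (-0.17) differed by more than the error of 1 spot, of 0.14 to 0.16. A difference between the lines carries the error of both arrays, so these values alone do not show that the lines differ.

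**Figure D4:**
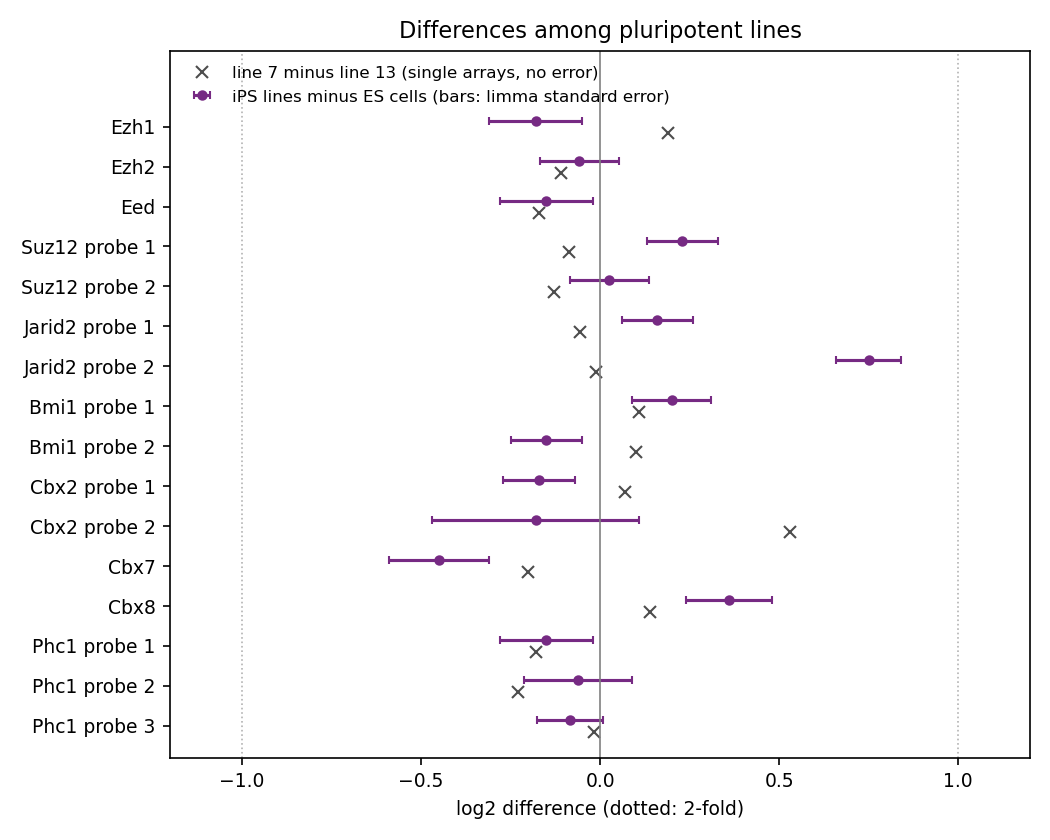
Log2 differences among pluripotent lines (x axis) for the 16 member probes: iPS lines minus ES cells with limma standard errors, and line 7 minus line 13 as single-array values without error; dotted lines mark 2-fold. All symbols lie inside the dotted lines, with the dimmer Jarid2 probe at 0.75 and Cbx7 at -0.45 farthest from 0 for iPS minus ES.

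Among the other PRC2 genes, 4 were higher in the lines than in BMMNCs, 1 lower and 2 not called; over 13031 genes by brightest probe 41.5% were higher and 36.3% lower. Epop, which links PRC2 to elongin, had the largest rise of the list (5.24, SE 0.10, adjusted p = 0.000628), with levels of 4.63 in ES cells, 4.61 and 4.68 in the lines and -0.59 in BMMNCs. Mtf2 (1.49), a Polycomb-like protein that binds unmethylated CG-rich DNA, Aebp2 (1.34) and the histone-binding Rbbp7 (1.1) were also higher. The other Mtf2 probes gave 2.29 and 2.74. Phf1, another Polycomb-like protein, was lower (-2.45, SE 0.12, adjusted p = 0.00148). Rbbp4 and Phf19 did not pass, although the 3 Rbbp4 probes gave -0.32, 0.74 and -0.30 and the second of them passed (adjusted p = 0.014). In ES cells against BMMNCs the same list had 4 other genes higher, 2 lower and 1 not called, beside 41.9% and 33.6% of all genes. With the members, the median of the 12 tested PRC2 genes was 0.71 beside 0.10 over all named genes.

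Of the other canonical PRC1 genes reported, 4 were higher, 3 lower and 1 not called, beside 41.5% higher and 36.3% lower over all genes. The median of these PRC1 genes was 0.34, or 0.99 over 13 genes with the members. The 4 and both medians include Pcgf2, which was tested only through the pluripotent arrays, so that it is no measure of direction there. Higher were Rnf2 (0.99, SE 0.11), the RING enzyme Ring1B, Scmh1 (1.01), Sfmbt2 (3.28) and Pcgf2. The other Rnf2 probe gave 2.07. Sfmbt1 and Sfmbt2 are counted in this list and its median, though their place in canonical PRC1 was not tested. Pcgf2, the Bmi1 paralog Mel18, was -2.53 in ES cells, -2.28 and -2.34 in the lines and not well above background in BMMNCs. It was at least 6.17-fold higher in the lines and at least 5.3-fold in ES cells, a bound from the dimmest BMMNC signal that counts as above background. Thus the Pcgf paralogs Bmi1 and Pcgf2 moved in opposite directions. Lower were Ring1 (-0.94, SE 0.10), the paralog of Rnf2, Sfmbt1 (-0.89) and Phc2 (-0.45, adjusted p = 0.0387), and Cbx6 did not pass on its brightest probe (-0.30, adjusted p = 0.0646), which passed in 4 other settings. Its other probes gave -0.38 (adjusted p = 0.0411) and -0.018. Phc2 thus fell slightly where Phc1 rose, though its call was lost under 4 of the alternatives. With ES and iPS as 1 group, Scmh1 (adjusted p = 0.256) and Sfmbt1 (0.162) did not pass.

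Variant PRC1 complexes lack the Cbx proteins of canonical PRC1 and carry Rybp or Yaf2. Beside 41.5% higher and 36.3% lower over all genes, they had 7 genes higher, 2 lower and 3 not called of 12 tested. Among those above background on all arrays, Pcgf6, known from ES cells, rose most (2.68, SE 0.10, adjusted p = 0.001), with 2.78, 2.98, 3.04 and 0.33 on the arrays. Pcgf3, also among the 7, was not well above background in BMMNCs and was tested only through the pluripotent arrays. It was at least 5.99-fold higher. Rybp was higher (1.93) and its paralog Yaf2 lower (-1.27, SE 0.10, adjusted p = 0.00336). Bcor was also lower on its brightest probe (-0.59), while its 3 probes gave -0.59, -1.75 and 0.49. The call on the brightest was lost with no filter on dim probes (adjusted p = 0.0632) and with ES and iPS as 1 group (0.128). Against ES cells no gene of either PRC1 list passed, beside 1.95% higher and 2.82% lower among all genes, and 1 PRC2 gene did, Phf19.

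**Figure D5:**
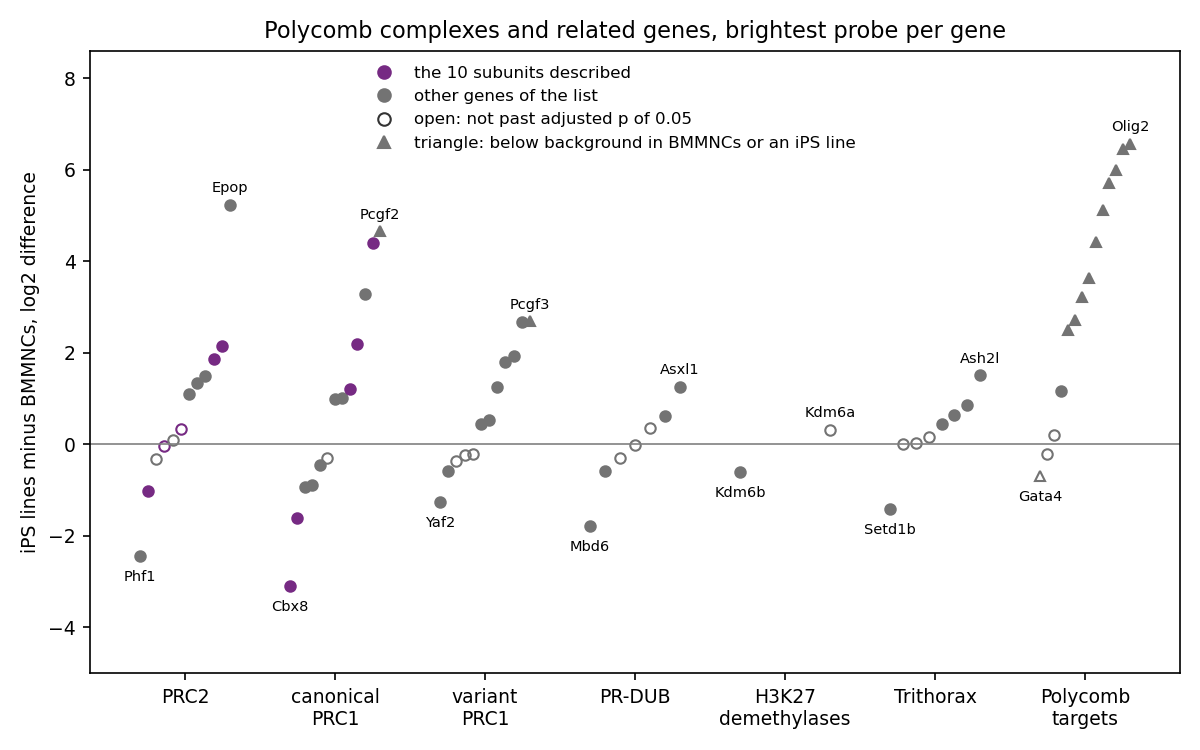
Log2 difference between iPS lines and BMMNCs (y axis) for the brightest probe of each gene reported in 7 lists (x axis), the 10 subunits in purple, open symbols not past the adjusted p of 0.05, and triangles where a group is below background and the value is no measured size. Among canonical PRC1 genes above background on all arrays, Cbx8 is lowest at -3.09 and Phc1 highest at 4.41, and Epop is highest in PRC2 at 5.24.

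Of 18 genes known as Polycomb targets, 14 were tested. In the lines 11 passed as higher than in BMMNCs, beside 41.5% higher and 36.3% lower over all genes. Of these 11, 10 were not well above background in BMMNCs and were tested only because a pluripotent array was bright, so their number is no measure of direction. Pax3, Hoxb1 and Neurog2 were not above background on any array. Sizes are bounds for the 10: Cdkn2a, a cell cycle inhibitor and Polycomb target, was at least 13.3-fold higher and Cdkn2b at least 87.8-fold. Gata6, of the primitive endoderm, was at least 15.5-fold higher and Foxa2, of the endoderm, at least 9.24-fold higher. Pax6 alone of the 11 was above background on all 4 arrays, at -1.23 in ES cells, -2.24 and -2.20 in the lines and -3.39 in BMMNCs (1.17, SE 0.093, adjusted p = 0.00348). With ES and iPS as 1 group it did not pass (1.5, adjusted p = 0.0708). The other Pax6 probe was well above background on no array. Feeder fibroblasts can carry RNA of Cdkn2a and Cdkn2b, and the summed fibroblast markers given above were higher in the same arrays. The part of these fibroblasts was not tested.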

How the data were processed

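Cy3-labelled RNA of 4 samples was measured on single-colour Agilent arrays, as the labels' protocols state. The deposited intensities are the spots' processed signals, from which background and spatial trends had been taken by Agilent Feature Extraction, version 9.5 per the submitters' processing notes and 9.5.1.1 per the file headers, on a probe layout of the mm7 build. Per the file headers, the 4 arrays shared 1 slide and 1 scan time. The authors also deposited a table of intensities, which equals the processed signal over a single factor for each array, linear and not centred by gene. Its column medians were 139.9 for ES cells, 135.9 for line 7, 133.6 for line 13 and 106.2 for BMMNCs, and how the factors were set is unknown.

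Left out were control spots and 14 probes with outlier spots. Repeat spots were averaged per probe, and each level is log2 of the signal over the 75th percentile of that array. The mark for well above background had to be set on a share of 0.5 or more of a probe's spots. RefSeq genes of GRCm38.p6 gave names, through unversioned accessions, to 22941 of 41160 probes. The 27257 probes well above background on at least 1 array were fitted with limma 3.58.1 in R 4.3.3, with a mean each for ES cells, iPS lines and BMMNCs, 1 residual degree of freedom, a prior of 1.87 degrees of freedom and a prior SD of 0.09235. Benjamini-Hochberg adjustment ran over all of these probes, and calls required an adjusted p under 0.05. The fit was tested on simulated data.

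All member probes are named. From each companion list, the genes named are those with the largest rise and fall past the threshold and well above background on every array compared, all genes of a count of 5 or fewer, and some named after their values were seen. Of the genes these rules give, 1 in the canonical PRC1 list, left out of that list's counts and medians, and 1 other are not reported here. The brightest probe by mean signal stands for a companion gene. Other settings tried were median scaling, quantile normalization, normexp background correction with an offset of 50, the authors' table, no filter on dim probes, probes above background on all arrays, an intensity trend in the prior, 1 probe a gene, ES and iPS as 1 group, and each line left out. Normexp was run on the median signal, since a mean signal column was not used here. The members and lists were chosen with earlier results of these data known.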

Additional observations from a re-analysis of the deposited data

Results flagged for a closer look

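Between iPS lines and ES cells 4 genes of the companion lists and 1 cell type marker passed the test of the difference itself by limma, each with both lines on the same side of the ES array. They were 1 of 12 tested PRC2 genes, 2 higher and 1 lower of 14 tested Polycomb targets, and 1 of 8 pluripotency genes. Over all genes by brightest probe, 1.95% were higher and 2.82% lower. Phf19, a Polycomb-like PRC2 subunit, was higher by 1.26 (SE 0.11, adjusted p = 0.0439), at -0.84 in ES cells, 0.47 and 0.37 in the lines and 0.33 in BMMNCs. Cdx2, a trophectoderm factor, was higher by 2.31 (adjusted p = 0.0389), at -3.50 in ES cells and -1.14 and -1.23 in the lines. Olig2, a neural progenitor factor, was not well above background in ES cells and at 0.064 and 0.20 in the lines, a fitted difference of 7.46 (adjusted p = 0.0389) and at least 38.7-fold. Its other probe was above background on 1 array, and the other probe of Pax6 on none. Pax6, an eye and neural factor, differed by -0.99 (adjusted p = 0.0474). Zfp42, the pluripotency marker Rex1, differed by -3.69 (SE 0.16, adjusted p = 0.0389), at 7.12 in ES cells and 3.30 and 3.55 in the lines. All 5 calls were lost with the authors' table and with no filter on dim probes, where limma called 0 probes of the whole array (8581 and 6207 at an unadjusted p under 0.05), and that of Pax6 also with median scaling and with 1 probe a gene. The rule on single outlying samples needs 4 samples in a group and could not be used.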

How the results depend on the processing

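Of the recomputed values of the member probes, 157 of 169 for iPS against BMMNCs, 139 of 153 for iPS against ES and 128 of 137 for ES against BMMNCs kept their direction and, where tested, their side of the threshold. Values with a line left out have no test and were counted by direction alone. With 1 probe a gene, 5 of 10 members were higher against BMMNCs in both comparisons. Of all 21216 probes in that fit, 16083 passed in either direction for the lines and 15604 for ES cells. By brightest probe in the reported fit, 41.5% of all genes were higher in the lines and 41.9% in ES cells. With no filter on dim probes 2 member probes were lower in ES cells than in BMMNCs, since Ezh1 (adjusted p = 0.0662) and the dimmer Bmi1 probe (adjusted p = 0.101) no longer passed. Between iPS and ES cells, 1 member probe was higher and 1 lower with normexp correction, and 2 higher and 1 lower with probes above background on all arrays and with the intensity trend. Over all probes these settings gave 3157 higher and 4112 lower, 3083 and 4152, and 4225 and 5490, where 544 and 785 are reported, and the authors' table and no filter gave 0. The cause was not tested. Signs turned for small differences. For iPS against BMMNCs, Ezh2 was 0.078 with quantile normalization, 0.041 with normexp, 0.095 with the authors' table and -0.091 to 0.018 with a line left out, the dimmer Cbx2 probe -0.32 with normexp, and Phf19 -0.10 with median scaling and -0.33 with ES and iPS as 1 group. For iPS against ES, median scaling gave Ezh2 0.030 and the dimmer Phc1 probes 0.025 and 0.005, and leaving out a line gave ranges of -0.18 to 0.051 for the middle Phc1 probe, -0.037 to 0.088 for the dimmer Suz12 probe and -0.44 to 0.090 for the dimmer Cbx2 probe. For ES against BMMNCs, Ezh2 was -0.26 with median scaling and -0.017 with ES and iPS as 1 group, the brighter Suz12 probe -0.18 with median scaling and the dimmer Cbx2 probe -0.26 with normexp. Median scaling moved the median difference of all probes from BMMNCs by -0.191 in the lines and -0.280 in ES cells, and normexp by -0.201 and -0.221. Signal near background limits the dimmer Cbx2 probe. No paired analysis was possible because the groups compared share fewer than 2 replicate numbers.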

Other observations

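Genes that work against or beside Polycomb were mixed. Over all genes by brightest probe, 41.5% were higher in the lines than in BMMNCs and 36.3% lower. Of 7 tested genes of PR-DUB, the complex that removes the PRC1 mark, 2 were higher in the lines than in BMMNCs by limma, 2 lower and 3 not called, with a median of -0.007. Asxl1 was higher by 1.26 on its brightest probe (SE 0.091, adjusted p = 0.00289), while its other probes gave 0.48 (adjusted p = 0.0221) and 0.083 (0.659). Asxl2 was higher by 0.62, and Mbd6 (-1.78, SE 0.092, adjusted p = 0.00165, and -0.48 on its other probe) and Ogt (-0.59, and -0.052 on its other probe) were lower. The H3K27 demethylase Kdm6b was lower (-0.60, adjusted p = 0.0149), and Kdm6a did not pass (0.32, adjusted p = 0.0535). Asxl2, Ogt and Kdm6b lost their calls with no filter on dim probes, at adjusted p of 0.0631 to 0.0645. Of 8 trithorax genes, whose products write active histone marks, 4 were higher and 1 lower, with Ash2l highest (1.51, SE 0.11, adjusted p = 0.00287) and Setd1b lower (-1.41, SE 0.10, adjusted p = 0.00266).

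Among the genes whose levels over the 4 arrays were most like those of Phc1, by the root mean square difference of centred levels among 10002 genes above background on all arrays, were Gpt2 (0.059) and Zscan18 (0.061). Gpt2, a mitochondrial aminotransferase, read 2.35 in ES cells, 2.04 and 2.14 in the lines and -2.23 in BMMNCs. For Cbx8 they were H2-Q10 (0.023), Grina (0.026) and Ifngr2 (0.042). Ifngr2, a chain of the interferon gamma receptor, read 0.19, 0.71, 0.54 and 3.76. H2-Q10 belongs to a family of near-identical genes, so its probe is uncertain. With 4 arrays likeness is a description of these samples.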
